A study of Mus musculus with 8 samples.

Results

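The Slc25 genes encode the mitochondrial carriers, and their transcripts were followed in the hearts of male mice aged 12 weeks, 4 wild-type (WT) and 4 overexpressing PKR2. The members were all genes whose symbol on the array is Slc25a followed by a number, which gave 42 of the 27745 gene names on it. Each gene was represented by the brightest of its probes, chosen over all 8 hearts without regard to group. The name PKR2 is taken to mean prokineticin receptor 2, which Prokr2 encodes and which couples to G proteins. The labels give neither the promoter that drives the receptor, the strain, nor whether the WT mice were littermates, so the cell type that carries the receptor is not given in the sources used here. The single Prokr2 probe was well above background on 0 of 8 arrays, and a probe of this kind need not detect a transgene, so the genotype labels stand unchecked by it.

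Mitochondrial carriers are small proteins of the inner mitochondrial membrane, and each swaps or imports a narrow set of solutes between the cytosol and the matrix. Adenine nucleotide translocases and the phosphate carrier supply ATP synthase with ADP and phosphate and send ATP out, which the beating heart depends on. Other members carry citrate, malate, carnitine esters, amino acids, coenzymes, nucleotides, iron or glutathione, and a few sit in other membranes. The uncoupling proteins Ucp1, Ucp2 and Ucp3 belong to the same protein family under other names and were kept outside the members.

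Each heart was hybridised to its own 1-colour array, and a level is the log2 processed signal minus the array's 75th percentile, so a level of 0 is that percentile. Levels describe 1 probe across hearts and do not rank genes against each other. That percentile ran from a signal of 40.9 (WT 2) to 770 (PKR2 1), and between 48.3% and 67.1% of spots were well above background. The 15 heart muscle markers examined were all above background in every heart. The scan covered a single range for WT 2, WT 4 and PKR2 4 and an extended one for the others, and the 8 arrays lay on 6 slides, of which slides 5 and 6 each held 1 WT and 1 PKR2 heart. In whole hearts, fewer cells of a type and less RNA per cell cannot be told apart.

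Of the 42 carriers, 32 were above background in all 8 hearts, 6 in some and 4 in none. Those 4 were Slc25a21, the oxodicarboxylate carrier, Slc25a31, the testis-type adenine nucleotide translocase, Slc25a41, an ATP-Mg/phosphate carrier, and Slc25a43, whose substrate is less settled. Slc25a15, an ornithine carrier, was above background in 1 heart, and Slc25a18, a glutamate carrier, and Slc25a34 in 4 hearts each, 2 per group. These 7 were not compared between groups, because a probe had to be above background in at least 3 hearts of a group. The other 35 include Slc25a2, another ornithine carrier, and Slc25a23, each above background in 2 WT and 3 PKR2 hearts, and Slc25a42, above it in 3 WT hearts and 1 PKR2 heart. Slc25a42 passed this filter through the WT hearts alone and Slc25a2 and Slc25a23 through the PKR2 hearts alone. The signs of these 3 enter the counts below but add no support to a direction.

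No carrier passed the test of WT against PKR2 hearts. At an adjusted p below 0.05 (limma, Benjamini-Hochberg over 15656 features), 0 of 35 carriers passed, where 0% of all features did. Without adjustment 1 of 35 lay below 0.05, Slc25a35, where 2.44% of all features did (1.4% lower and 1.04% higher in PKR2). Groups did not overlap for 1 of 35, Slc25a44, against 1.62% of all features (0.869% lower and 0.754% higher). These shares are near the background.

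Most carriers lay slightly below WT in PKR2 hearts: 23 of 35 (65.7%) had a negative difference against 49.6% of all features, a direction that turned under normexp background correction. The lower carriers include Slc25a42 and Slc25a2 and the higher ones Slc25a23, whose signs add no support because each was admitted through 1 group alone. Among the 32 carriers above background in all 8 hearts the median difference was -0.0703. The median difference was -0.072, with a middle range from -0.166 to 0.034, and that of all features was 0.0015. With normexp the median carrier difference was 0.0998 and that of all features -0.03. With normexp after common scaling of the arrays, a setting chosen after seeing the data, the carrier median was -0.00304 and that of all features -0.045. The median carrier level of a heart, relative to each carrier's own mean, was -0.091, 0.084, 0.004 and 0.116 in WT 1 to WT 4 and -0.111, 0.093, -0.037 and -0.121 in PKR2 1 to PKR2 4. Both groups held hearts above and below 0, and PKR2 2 and PKR2 3 lay within the range of the WT hearts. The 95% interval of a carrier's difference had a median half-width of 0.497, from narrower ones such as that of Slc25a5 to the widest, that of Slc25a1.

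**Figure D1:**
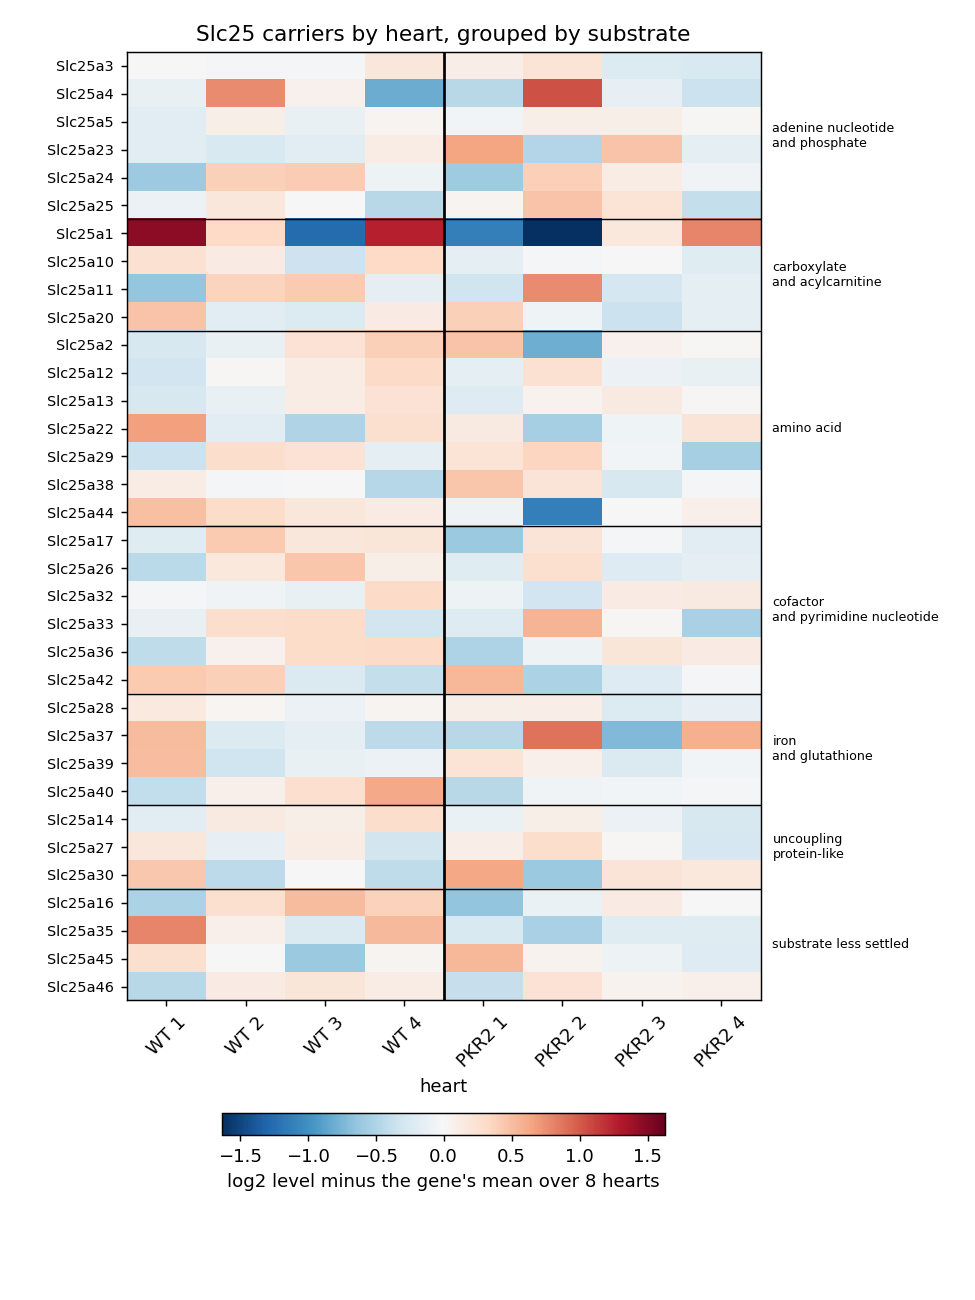
Levels of 34 of the 35 compared carriers in each heart, on a log2 scale relative to the gene's own mean over 8 hearts, with rows grouped by substrate and WT hearts left of the black line. Slc25a1 shows the deepest colours in both groups and reaches furthest down in PKR2 2; no block of rows separates WT from PKR2.

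Carriers of adenine nucleotides and phosphate formed the energy export group, with 6 of 8 members compared, 4 of them higher and 2 lower in PKR2, and a median difference of 0.063. Slc25a4 encodes the adenine nucleotide translocase of heart and skeletal muscle (probe at chr8:47706291-47706350, mm8). Its level was 9.45, 10.35, 9.65 and 8.76 in WT 1 to WT 4, and 9.12, 10.61, 9.44 and 9.22 in PKR2 1 to PKR2 4. WT 2 and PKR2 2 were the highest of their groups, and the groups overlapped throughout. The difference was 0.05 with an SE of 0.398 (limma adjusted p = 1). This probe was saturated on 2 arrays, WT 3 and PKR2 2. The second Slc25a4 probe ran from 8.97 to 9.68 over the 8 hearts, with WT 2 and PKR2 2 again at the top and a difference of 0.138.

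Slc25a5, the translocase isoform of most tissues, varied least of all compared carriers. It read 6.28, 6.55, 6.33 and 6.50 in WT 1 to WT 4, and 6.41, 6.55, 6.55 and 6.47 in PKR2 1 to PKR2 4, a spread within groups of 0.105 (SD). Its difference was 0.075 with a 95% interval from -0.232 to 0.382. The proteins of Slc25a4 and Slc25a5 are close relatives, and whether either probe also binds the other transcript was not tested. Slc25a3 encodes the phosphate carrier (probe at chr10:90548015-90548556, mm8, a span longer than the 60 bases of a probe). Levels of Slc25a3 were 6.37, 6.33, 6.34 and 6.55 in WT 1 to WT 4, and 6.47, 6.59, 6.14 and 6.11 in PKR2 1 to PKR2 4. PKR2 3 and PKR2 4 lay below every WT heart and PKR2 2 above all of them, and the difference was -0.073 with an SE of 0.161.

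The ATP-Mg/phosphate carriers, which adjust the adenine nucleotide pool of the matrix in response to calcium, had 3 of 4 members compared. Slc25a23, above background in 2 WT and 3 PKR2 hearts and 1 of the 4 higher members of the group, was admitted through the PKR2 hearts alone. It had levels of -4.31, -4.39, -4.32 and -4.01 in WT 1 to WT 4, and -3.49, -4.61, -3.67 and -4.29 in PKR2 1 to PKR2 4. PKR2 1 and PKR2 3 lay above all WT hearts and PKR2 2 below them, with a difference of 0.244 and an SE of 0.251, which turned to -0.67 under normexp. Slc25a25 ran from 0.19 to 0.83 in WT and from 0.25 to 1.11 in PKR2 hearts, a difference of 0.177 with an SE of 0.217. Slc25a24 differed by -0.068 (SE 0.275).

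**Figure D2:**
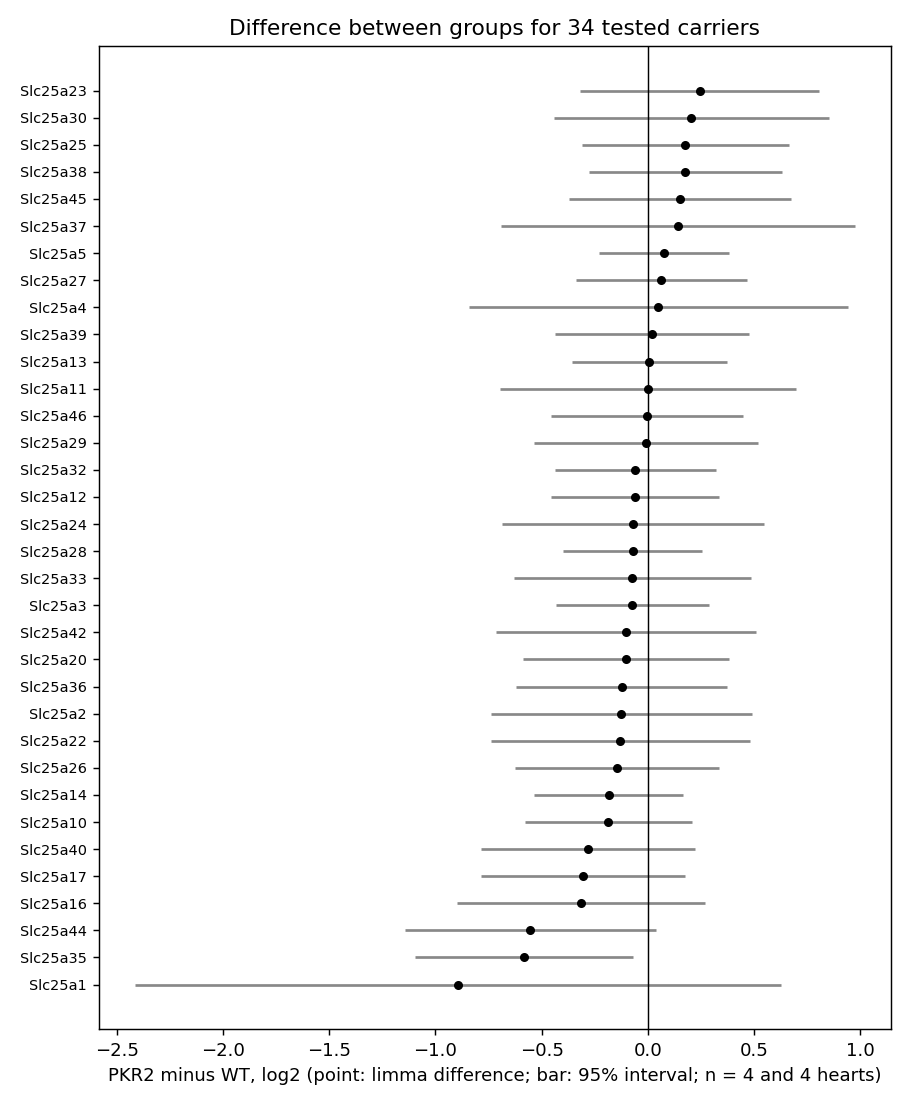
Difference between groups for 34 of the 35 compared carriers, PKR2 minus WT in log2 units, with points for the limma estimate and bars for its 95% interval (n = 4 and 4 hearts). Slc25a1 has the lowest value and the widest bar; the bar of Slc25a35 alone does not reach 0, and no carrier passed the adjusted threshold.

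Carriers of carboxylates and acylcarnitine, which link the citric acid cycle to the cytosol, had 4 of 5 members compared. Of these 3 were lower and 1, Slc25a11, sat at 0.00, with a median of -0.145. Slc25a1 encodes the citrate carrier, which exports citrate for fatty acid and sterol synthesis in the cytosol (probe at chr16:17839073-17839132, mm8). Its levels were 1.79, 0.65, -0.93 and 1.60 in WT 1 to WT 4, and -0.79, -1.30, 0.50 and 1.13 in PKR2 1 to PKR2 4. Low hearts were found in both groups: PKR2 1, PKR2 2 and WT 3 lay below 0 and the other five above it. The mean was 0.78 ± 1.24 in WT and -0.12 ± 1.12 in PKR2 hearts (SD, n = 4 each). Within-group spread was 1.185, the widest of the compared carriers and above the median of 0.327 among them. The difference of -0.89 (SE 0.678, 95% interval -2.41 to 0.63, limma adjusted p = 1) was within the spread of hearts. It was -1.46 without WT 3, -0.50 without PKR2 2 and -0.55 without WT 1. On slide 5 PKR2 3 exceeded WT 3 by 1.44, and on slide 6 the difference was -0.47. With slide as a fixed block it was 0.48, which restates these slides, because every other heart was alone on its slide.

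Fat cell markers varied across the same hearts. Of 12 compared adipocyte markers, 12 were lower in PKR2 hearts and 9 had an unadjusted limma p below 0.05, where 49.6% of all features were lower and 1.4% were lower with such a p. Both counts include Otop1, which was above background in 4 WT and 2 PKR2 hearts. Otop1 passed the filter through the WT hearts alone, where it was higher, so its sign adds no support. Their median difference was -2.17, with 0 past the adjusted threshold. The mean centred level of the list was 1.40, 1.11, -0.20 and 1.21 in WT 1 to WT 4, and -2.16, -2.16, 0.54 and 0.26 in PKR2 1 to PKR2 4. PKR2 1, PKR2 2 and WT 3, the hearts lowest for Slc25a1, were also the lowest for these markers. Adipoq, the fat cell hormone adiponectin, was above background in every heart and read -0.35 and -0.64 in PKR2 1 and PKR2 2 beside 2.26 to 4.25 in the WT hearts. Gpd1, the cytosolic glycerol phosphate dehydrogenase, is another enzyme that feeds lipid synthesis, and read 7.21, 6.68, 5.56 and 7.16 in WT 1 to WT 4 and 4.58, 5.16, 6.27 and 6.04 in PKR2 1 to PKR2 4. With the marker level as a covariate the Slc25a1 difference was 0.68 (SE 0.481), and without PKR2 1 and PKR2 2 it was 0.04 (SE 0.709). The marker level had a mean of 0.88 in WT and -0.88 in PKR2 hearts, so the covariate fit cannot tell fat content from genotype. Leaving out PKR2 1 and PKR2 2 was chosen after seeing the data. The part of fat cells in the Slc25a1 values was not tested.

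**Figure D3:**
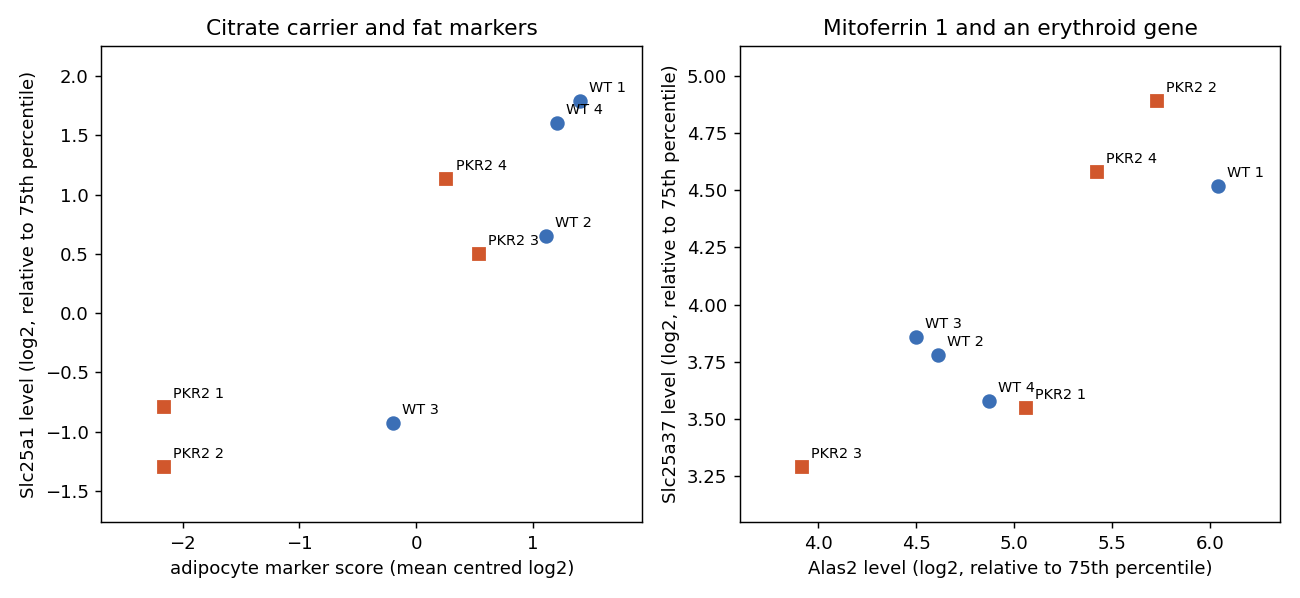
Left, the level of Slc25a1 against the mean centred level of the adipocyte markers, and right, Slc25a37 against Alas2, all in log2 units with 1 point per heart (circles WT, squares PKR2). PKR2 1, PKR2 2 and WT 3 sit lowest on both axes at left, and PKR2 2, PKR2 4 and WT 1 sit highest on both at right.

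Slc25a11, the oxoglutarate carrier of the malate-aspartate shuttle, was at the same mean in both groups (probe at chr11:70460432-70460491, mm8). Levels were 6.99, 7.98, 8.04 and 7.46 in WT 1 to WT 4, and 7.29, 8.39, 7.34 and 7.46 in PKR2 1 to PKR2 4. Means were 7.62 ± 0.49 and 7.62 ± 0.52 (SD, n = 4 each), and the 95% interval of the difference ran from -0.70 to 0.70. WT 2, WT 3 and PKR2 2 stood above the other hearts. Mdh1, the malate dehydrogenase of the same shuttle, was highest in the same 3 hearts, at 9.04, 8.57 and 9.07, as was Vdac1, the outer membrane pore, at 8.51, 8.36 and 8.76. Of the remaining hearts none exceeded 8.07 for Mdh1 or 8.05 for Vdac1. Mdh2 and Vdac2 were also highest in these 3 hearts, but Got1, Got2, Slc25a12 and Vdac3 were not. Got1 read 6.47 and 6.49 in WT 2 and WT 3, its lowest values. Outside mitochondrial transport, the endothelial cell marker Flt1 and the fibroblast marker Lum were highest in the same 3 hearts. The pattern was thus not particular to the shuttle or the pore. With quantile normalization, which gives all arrays 1 distribution, the SE of the Slc25a11 difference was 0.196 in place of 0.31, and that of Slc25a4 0.189 in place of 0.398. Slc25a10, the dicarboxylate carrier, and Slc25a20, which brings acylcarnitines in for fatty acid oxidation, differed by -0.186 and -0.103 with SEs of 0.175 and 0.215.

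Promoter sequence is shown for a choice of 4 carriers described above: the heart translocase and the phosphate carrier of ATP supply, the oxoglutarate carrier, and the citrate carrier with the widest spread. Each is the 250 bases before the transcription start, from RefSeq GRCm38.p6, all on the minus strand. Capitals mark matches on either strand to the CCAAT box (CCAAT), the GC box (GGGCGG), the E-box (CACGTG) and the motif of nuclear respiratory factor 1 (GCGC, then A, then any base, then GCGC); overlapping matches of different motifs were allowed. The positions are chr8:46211063-46211312, chr10:91123968-91124217, chr11:70647040-70647289 and chr16:17928220-17928469 in this order.
Slc25a4: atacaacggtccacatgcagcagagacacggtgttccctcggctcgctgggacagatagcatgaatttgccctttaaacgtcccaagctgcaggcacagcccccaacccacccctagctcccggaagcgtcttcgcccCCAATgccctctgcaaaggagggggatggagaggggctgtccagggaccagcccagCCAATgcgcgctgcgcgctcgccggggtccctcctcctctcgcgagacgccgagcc
Slc25a3: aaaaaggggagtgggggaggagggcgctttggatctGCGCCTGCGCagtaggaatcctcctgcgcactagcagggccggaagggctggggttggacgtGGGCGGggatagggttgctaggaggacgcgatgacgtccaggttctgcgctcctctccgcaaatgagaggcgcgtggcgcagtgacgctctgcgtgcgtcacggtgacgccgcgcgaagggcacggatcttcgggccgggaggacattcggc
Slc25a11: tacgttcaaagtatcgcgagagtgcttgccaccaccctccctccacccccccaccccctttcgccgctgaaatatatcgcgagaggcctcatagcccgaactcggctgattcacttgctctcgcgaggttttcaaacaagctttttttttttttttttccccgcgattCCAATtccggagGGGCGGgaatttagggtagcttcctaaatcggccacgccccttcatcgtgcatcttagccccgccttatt
Slc25a1: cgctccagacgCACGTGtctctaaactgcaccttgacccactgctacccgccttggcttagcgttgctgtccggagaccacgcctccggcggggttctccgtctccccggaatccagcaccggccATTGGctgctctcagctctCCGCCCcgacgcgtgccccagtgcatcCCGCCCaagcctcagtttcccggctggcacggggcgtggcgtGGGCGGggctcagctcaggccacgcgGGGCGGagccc
In these windows Slc25a4 held 2 CCAAT boxes, Slc25a3 held 1 GC box and 1 nuclear respiratory factor 1 motif, Slc25a11 held 1 CCAAT box and 1 GC box, and Slc25a1 held 1 CCAAT box, 4 GC boxes and 1 E-box. The table matched 32 carriers with 41 promoters. GC boxes occurred in 70.7% of those against 32.7% of all 32851 promoters, CCAAT boxes in 46.3% against 33.8%, E-boxes in 19.5% against 6.02% and the nuclear respiratory factor 1 motif in 4.88% against 3.74%. Base composition differed as well, with a median GC content of 57.2% against 52.4%. A match is a description of letters and not a bound site.

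Amino acid carriers had 7 of 9 members compared, 2 higher and 5 lower, with a median of -0.062. The lower ones include Slc25a2, which was admitted through the PKR2 hearts alone. Slc25a44 carries branched-chain amino acids into mitochondria and is known from brown fat (probe at chr3:88496567-88496626, mm8). It read -1.13, -1.32, -1.44 and -1.49 in WT 1 to WT 4, and -1.70, -2.73, -1.62 and -1.54 in PKR2 1 to PKR2 4. Every PKR2 heart lay below every WT heart, with a gap from WT 4 to PKR2 4 that is small beside the drop in PKR2 2. The difference was -0.55 (SE 0.263, 95% interval -1.14 to 0.04, limma adjusted p = 1). Without PKR2 2 the difference was -0.27 (SE 0.159), on slide 5 it was -0.18 and on slide 6 -0.05. PKR2 1 and PKR2 2 had the lowest fat marker level, -2.16 in each. They were also the lowest hearts for Slc25a44, at -1.70 and -2.73. WT 3, the WT heart lowest for these markers, read -1.44 for Slc25a44, beside -1.49 in WT 4. With the marker level as a covariate the Slc25a44 difference was -0.17 (SE 0.309). That level had a mean of 0.88 in WT and -0.88 in PKR2 hearts, so this fit cannot tell fat content from genotype. The part of fat cells in the Slc25a44 values was not tested.

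Slc25a12 and Slc25a13, the aspartate-glutamate carriers of the malate-aspartate shuttle, had differences close to 0. Slc25a12, the heart and brain form, read 4.55, 4.88, 4.98 and 5.17 in WT 1 to WT 4 and 4.71, 5.11, 4.77 and 4.74 in PKR2 1 to PKR2 4. The groups overlapped, with a difference of -0.062 (SE 0.177). Slc25a13 differed by 0.007 (SE 0.163), with a 95% interval from -0.359 to 0.372. Slc25a38 carries glycine for haem synthesis and ran from 0.33 to 0.92 in WT and 0.53 to 1.24 in PKR2 hearts, a difference of 0.177 (SE 0.202). The glutamate carrier Slc25a22 and the basic amino acid carrier Slc25a29 differed by -0.131 and -0.008.

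Carriers of cofactors and pyrimidine nucleotides had 7 of 7 members compared, with differences from -0.305 to -0.059, a median of -0.123 and 0 past the threshold. The 7 values are negative with the settings used here, but Slc25a42 entered through the WT hearts alone, where it was higher, so its sign adds no support. Slc25a17, a peroxisomal carrier of coenzymes, had the largest of these differences, which turned to 0.10 under normexp. Its levels were 2.53, 3.16, 2.91 and 2.93 in WT 1 to WT 4, and 2.12, 2.94, 2.70 and 2.54 in PKR2 1 to PKR2 4. PKR2 1 was lowest, WT 1 was as low as PKR2 4, and the difference of -0.305 had an SE of 0.213. The dimmest of its 3 probes gave 0.034. The S-adenosylmethionine carrier Slc25a26 differed by -0.147 (SE 0.214). For the folate carrier Slc25a32 the value was -0.059, for the pyrimidine nucleotide carriers Slc25a33 and Slc25a36 -0.073 and -0.123, and for the coenzyme A carrier Slc25a42 -0.102.

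Iron and glutathione carriers numbered 4, with 2 higher and 2 lower. Slc25a37 encodes mitoferrin 1, the iron importer of developing red cells, and is named here after its values were seen (probe at chr14:68195293-68195352, mm8). Mitoferrin 1 read 4.52, 3.78, 3.86 and 3.58 in WT 1 to WT 4, and 3.55, 4.89, 3.29 and 4.58 in PKR2 1 to PKR2 4. PKR2 hearts held both the 2 highest and the 2 lowest values, so the group difference of 0.14 (SE 0.370) was small beside a within-group spread of 0.621. Alas2, the red cell enzyme that starts haem synthesis, read 6.04, 4.61, 4.50 and 4.87 in WT 1 to WT 4, and 5.06, 5.73, 3.92 and 5.42 in PKR2 1 to PKR2 4. Its 3 highest hearts and its lowest heart were those of Slc25a37. The 5 erythroid markers had a mean centred level of 0.36, 0.12, -0.31 and -0.30 in WT 1 to WT 4, and -0.27, 1.40, -1.14 and 0.14 in PKR2 1 to PKR2 4. Their part in the Slc25a37 levels was not tested.

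Mitoferrin 2, encoded by Slc25a28 and used by most tissues, was among the steadiest carriers, with a spread within groups of 0.136 and a difference of -0.072 (SE 0.145). Slc25a39 and Slc25a40 encode carriers needed for glutathione import. Slc25a39 ran from 4.36 to 5.18 in WT and 4.45 to 4.90 in PKR2 hearts, a difference of 0.018 (SE 0.203) whose sign turned in several fits. Slc25a40 read -1.85, -1.37, -1.17 and -0.83 in WT 1 to WT 4, and -1.90, -1.50, -1.49 and -1.48 in PKR2 1 to PKR2 4. PKR2 1 was lowest and 3 PKR2 hearts lay nearly level, below WT 2, WT 3 and WT 4 but above WT 1, with a difference of -0.283 (SE 0.225).

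The uncoupling protein-like carriers Slc25a14, Slc25a27 and Slc25a30 differed by -0.185, 0.064 and 0.204. Slc25a30, the kidney mitochondrial carrier, ran from -2.10 to -1.23 in WT and -2.27 to -1.04 in PKR2 hearts (SE 0.289). Ucp1, the uncoupling protein of brown fat, stood apart from them in size with 5.94, 4.98, 4.18 and 6.05 in WT 1 to WT 4, and 1.51, 0.20, 4.95 and 3.92 in PKR2 1 to PKR2 4. It is itself 1 of the fat markers above, and its difference of -2.64 did not pass the limma test after adjustment (adjusted p = 1).

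Of the carriers whose substrate is less settled, 4 of 6 were compared, 1 higher and 3 lower. Slc25a35 was the carrier with the smallest unadjusted p (probe at chr11:68788492-68788551, mm8). Its level was -1.35, -2.06, -2.38 and -1.62 in WT 1 to WT 4, and -2.39, -2.67, -2.35 and -2.35 in PKR2 1 to PKR2 4. The PKR2 hearts lay close together, and WT 3 was as low as they were, so the groups overlapped. The difference was -0.59 (SE 0.229, 95% interval -1.10 to -0.07, limma adjusted p = 1), and an exact permutation test gave p = 0.0857, two-sided. It was -0.30 with the fat marker level as a covariate, -0.35 with slide as a fixed block and -0.37 in the authors' values. PKR2 and WT differed by 0.03 on slide 5 and by -0.73 on slide 6, the only slides that inform the fixed block estimate. The second Slc25a35 probe, named by a transcript that RefSeq places with the overlapping gene Rangrf, gave -0.144. Slc25a16 differed by -0.316 (SE 0.260), Slc25a46, an outer membrane protein of mitochondrial fusion and fission, by -0.003 (SE 0.201), and Slc25a45 by 0.151 (SE 0.233), which turned to -0.21 under normexp.

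The carriers were measured by 71 probes, 1 each for 22 members and several for 20. For 12 members at least 2 probes were above background in all 8 hearts, and in 6 of these the probes differed in the sign of the group difference. Those 6 were Slc25a3, Slc25a17, Slc25a26, Slc25a29, Slc25a33 and Slc25a46, with the widest gap between signs for Slc25a46, from -0.124 to 0.233, and Slc25a17, from -0.305 to 0.034. The probes of Slc25a25 gave 0.177 and 0.198, and those of Slc25a37 0.141 and 0.455.

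**Figure D4:**
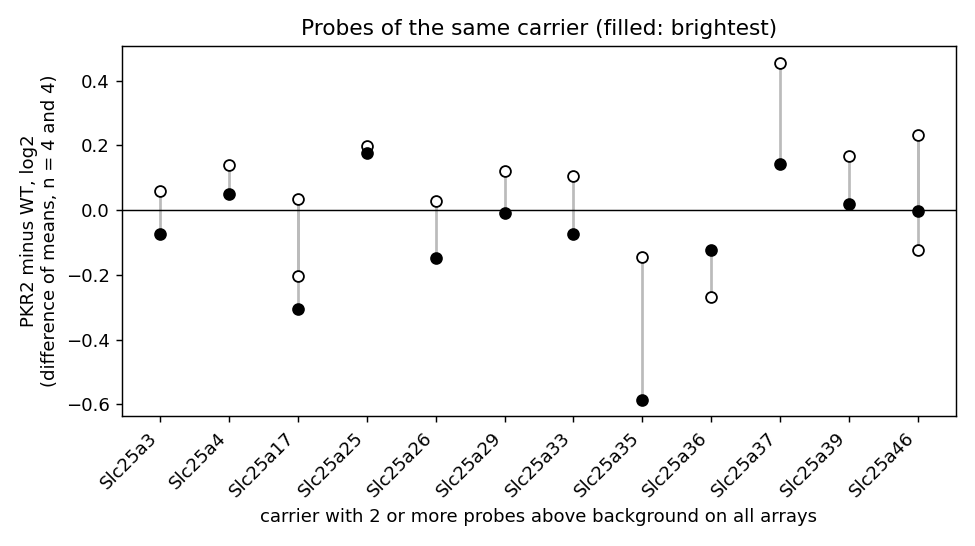
Difference between groups, PKR2 minus WT in log2 units, for each probe above background in all 8 hearts of the 12 carriers with at least 2 such probes, with the brightest probe filled. Points of 6 carriers lie on both sides of 0.

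Genes that work beside the carriers were examined as a list of 27 on the array, 26 of them compared. In PKR2 hearts 13 were higher and 13 lower, with a median of 0.009 and 0 past the adjusted threshold, and 2, Gpd1 and Ucp1, had an unadjusted limma p below 0.05, where 2.44% of all features did. Ucp1 is 1 of the fat markers, and Gpd1 was lowest in the same 3 hearts as they were. Among the 6 malate-aspartate and glycerol phosphate shuttle enzymes 3 were higher and 3 lower, and Got1, the cytosolic aspartate aminotransferase, differed by 0.129 (SE 0.131). The 4 carnitine shuttle enzymes had a median of 0.063, the 7 genes of outer membrane pores and energy transfer -0.017, and the 4 compared genes of pyruvate and calcium uptake -0.003.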

How the data were processed

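Heart RNA from 8 mice was labelled with Cy3 and hybridised to 1-colour Agilent arrays, per the labels' protocols. Per the file headers, Feature Extraction 9.5.1.1 subtracted background and removed spatial trends, and probe positions refer to mm8, for which no gene annotation was used here. The deposited scanner values hold linear spot intensity before any scaling across arrays. A value table deposited by the authors holds intensity already scaled across arrays; how is not given in the sources used here. Its column medians were 139 to 144 and it tracked the scanner's log2 signal (r of 0.991 to 0.998 across probes with values over 2000, which are not replicates). It was therefore read as linear, uncentred and in the scanner's direction, and its normalization stays unknown.

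Log2 processed signal was reduced by each array's 75th percentile over non-control probes. Control spots and flagged outliers were left out, saturated spots kept, and spots of 1 probe averaged (43379 spots, 41174 probes). A feature was 1 gene name, by its brightest probe, tested where at least 3 of 4 arrays of a group read that probe as well above background. The comparison used lmFit and eBayes of limma 3.58.1 without covariates (R 4.3.3, package data.table, version 1.17.8), adjusted by Benjamini-Hochberg over 15656 features at 0.05, which was tested on simulated data first. Adjusted p-values and unadjusted p-values of single genes come from limma unless an exact permutation test is named. Replicate is the mouse as labelled; nothing says how the mice were bred, so p-values measure only the spread between these samples.

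Genes named are the 5 carriers with the smallest p in each direction, the 6 with the highest mean level, and any whose groups do not overlap; others are given by value or count, and 1 carrier that enters the counts is not reported here. The members, marker lists and tests were chosen with earlier results of these data known. Alternatives were normexp (offset 50), quantile normalization, the authors' values, looser and stricter probe filters, the mean of probes, slide or scan range as a block, the adipocyte level as a covariate, updated symbols and leaving out each array. Symbols of all 42 members matched RefSeq.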

Additional observations from a re-analysis of the deposited data

Results flagged for a closer look

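Among the 35 compared carriers each group of 4 hearts was examined for a heart far from the other 3, which gave 8 of 70 groups. The nominal rate of the rule is about 1 in 20, and the share over all features was not computed. All carriers share the same hearts, so the 70 groups are not independent and the count is not a result about the carriers. In WT hearts Slc25a3 was high in WT 4 at 6.55, with the others from 6.33 to 6.37, and Slc25a46 was low in WT 1 at 3.47, with the others from 4.04 to 4.12. PKR2 2 stood apart in 5 carriers. It was high for Slc25a11 at 8.39 (others 7.29 to 7.46), Slc25a12 at 5.11 (others 4.71 to 4.77) and Slc25a26 at 2.91 (others 2.43 to 2.50). The same heart was low for Slc25a35 at -2.67 (others -2.39 to -2.35) and Slc25a44 at -2.73 (others -1.70 to -1.54). Slc25a40 was low in PKR2 1 at -1.90, with the others from -1.50 to -1.48.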

How the results depend on the processing

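In 21 other fits, 8 of them leaving out 1 array, 0 carriers and 0 partner genes passed the adjusted threshold in limma, and 0 to 2 carriers had an unadjusted p below 0.05. The number of features called was 0, with 382 at an unadjusted p below 0.05, but was 1 with probes above background on all 8 arrays, 1 with slide as a random block and 0 to 1 when leaving out an array (1 without PKR2 3). Over the 13 settings that keep or drop no single array, the smallest adjusted p of any named carrier was 0.592. The median carrier difference was 0.0998 with normexp background correction and -0.00304 with normexp after common scaling. When leaving out 1 array it ran from -0.128 to -0.0321, with -0.128 without PKR2 2, -0.127 without WT 1, -0.0321 without WT 3, -0.0416 without PKR2 4 and -0.0417 without PKR2 3. Slc25a35, Slc25a44 and Slc25a40 stayed negative in every fit run (-0.76 to -0.42, -0.67 to -0.27 and -0.46 to -0.12 when leaving out 1 array) and Slc25a5 stayed positive. Signs turned as follows, and the cause was not tested. With normexp, Slc25a17 was 0.10, Slc25a23 -0.67, Slc25a30 -0.12, Slc25a45 -0.21, Slc25a3 0.36 and Slc25a12 0.35; with normexp after common scaling, Slc25a23 was -0.37, Slc25a45 -0.054, Slc25a3 0.17 and Slc25a12 0.16. Slc25a4 was -0.0052 with quantile normalization, Slc25a11 -0.10 with the authors' values and Slc25a3 0.096 with the mean of probes. Slide as a fixed block gave 0.48 for Slc25a1, -0.35 for Slc25a11 and -0.031 for Slc25a39, a random block -0.12 for Slc25a11, and scan range as a block -0.003 for Slc25a4 and -0.046 for Slc25a39. The adipocyte level as a covariate gave 0.68 for Slc25a1, -0.11 for Slc25a38, -0.029 for Slc25a25, -0.29 for Slc25a4, -0.41 for Slc25a11, -0.088 for Slc25a39 and -0.0049 for Slc25a37. Leaving out PKR2 1 and PKR2 2 together gave 0.039 for Slc25a1, -0.062 for Slc25a38, -0.074 for Slc25a45, -0.22 for Slc25a4, -0.22 for Slc25a11, -0.13 for Slc25a39 and -8e-04 for Slc25a37. Without 1 array the difference ran from -1.46 to -0.50 for Slc25a1, -0.29 to 0.32 for Slc25a4, -0.26 to 0.14 for Slc25a11, -0.13 to 0.40 for Slc25a37, -0.086 to 0.19 for Slc25a39, -0.18 to 0.029 for Slc25a12 and -0.026 to 0.26 for Slc25a45. Normexp after common scaling and leaving out PKR2 1 and PKR2 2 were chosen after seeing the data. Slc25a23 had no value with probes above background on all 8 arrays. Signal near background limits Slc25a2, Slc25a23 and Slc25a42. The labels carry no replicate numbers to pair hearts by. Slides 5 and 6, which each held a heart of both groups, were used as pairs through the slide block. As a fixed block, the difference rests on these slides alone, because every other heart was alone on its slide.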

Other observations

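Some carriers bear older names in the array files and so lie outside the naming pattern. Slc25a51, the mitochondrial NAD carrier, is listed there as Mcart1 and was above background in all 8 hearts, at 1.72, 1.36, 1.23 and 2.03 in WT 1 to WT 4 and 1.49, 1.27, 1.66 and 1.72 in PKR2 1 to PKR2 4, with overlapping groups. Slc25a47, known from liver and listed as AI132487, was also above background in all 8 hearts, from -1.20 to -0.83 in WT and -1.05 to -0.96 in PKR2 hearts. Slc25a48 and Slc25a54 were above background in 0 of 8 hearts.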
